A study of Mus musculus with 8 samples.

Results

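Collagen genes were followed across the cell classes of KP mouse lung tumors. The members were the genes whose symbol is Col, a number, a and a number, with at least 1 unique molecular identifier (UMI). This gave 44 collagens among the 26465 genes with a UMI, and 1 similar symbol, Col4a3bp, was left out because it is not a collagen. The tumors grew in chimeric mice made from KP embryonic stem cells, which carry p53 fl/fl, of the C57BL/6 background in albino C57BL/6 blastocysts, so the host cells of each lung are a mixture. Adenovirus with Cre under the SPC promoter was given at 12 weeks of age, which targets alveolar type II cells, and the tumors were dissected 16 weeks later. All groups carry the same alleles and had the same treatment. Tumor 1 and Tumor 2 came from 1 mouse each, 1 of them male and 1 female. For each tumor, photoactivated cells of the Healthy/Tumor Border gave 1 Seq-Well library, and non-photoactivated cells of the Whole Tumor gave 3 technical arrays.

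Collagens are made of 3 chains wound into a triple helix, and each chain has its own gene. Types I, III and V form the fibrils of connective tissue, types XII, XIV and XVI bind to fibril surfaces, type VI forms beaded microfibrils, and type IV builds the sheet of basement membranes under epithelium and endothelium. Types XV and XVIII are basement membrane proteoglycans. In lung, fibroblasts are known as the main source of fibrillar chains, and endothelial and alveolar cells share the type IV sheet.

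The 8 libraries held 374369 to 2019162 UMIs in 328 to 620 barcodes with at least 200 genes, 3894 barcodes in all. In all 8 libraries the barcodes are named after tumor 1 where GEO's labels say tumor 2, and the reverse. Groups follow the labels. Under them the borders of Tumors 1 and 2 held 686 and 534 deposited barcodes and the Whole Tumor arrays 1634 and 1489. These are the cell numbers that the study gives for the tumors of the same number. The same barcode sequence occurred in more than 1 library for 10 sequences, in 56 barcodes with 175 collagen UMIs. Barcodes were placed in a class by marker genes that include no collagen. This gave 45 fibroblast, 53 endothelial, 141 keratin-positive, 38 surfactant-positive and 2718 immune barcodes, while 31 were mixed, with at least as many immune UMIs as UMIs of the gate they passed, and 868 were placed in no class. A barcode past several non-immune gates stayed in 1 class, so a class can hold UMIs of another gate list. No fibroblast-class barcode came from Tumor 1 Whole Tumor array 1, and no endothelial-class barcode from the Tumor 1 border. Of the fibroblast class, 35 of 45 barcodes held Col1a1, Col1a2 or Col3a1, 15 held at least 3 UMIs of pericyte and smooth muscle genes, and 10 held none of the 3 chains. The endothelial class held 122 UMIs per 10000 of its own gate genes and 46.1 per 10000 of surfactant genes, and the fibroblast class held 130 of its own gate genes, 25.5 of surfactant genes and 7.87 of keratin genes.

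Of the 44 members, 35 had an entry in the RefSeq promoter table (GRCm38). The upstream sequences of Col3a1 and Col5a1 are shown because these genes were higher in fibroblasts than in endothelium and their windows of 250 bases before the start hold no annotated exon. The first bases shared by Col4a1 and Col4a2 are shown because both genes were high in endothelium. Col3a1 runs on the plus strand of chromosome 1 and its window is chr1:45311288-45311537. Col5a1 is on the plus strand of chromosome 2, with its window at chr2:27886175-27886424. Col4a1 (minus strand) and Col4a2 (plus strand) lie head to head on chromosome 8 with first exons that overlap over 22 bases, chr8:11312805-11312826, written here on the plus strand. Capitals mark a TATA box (TATAAA) or a GC box (GGGCGG), searched on both strands.
Col3a1: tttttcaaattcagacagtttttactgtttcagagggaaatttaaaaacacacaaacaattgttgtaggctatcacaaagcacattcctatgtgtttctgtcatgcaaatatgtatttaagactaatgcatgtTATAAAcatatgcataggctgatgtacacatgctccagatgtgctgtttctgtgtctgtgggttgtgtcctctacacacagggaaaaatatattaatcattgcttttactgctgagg
Col5a1: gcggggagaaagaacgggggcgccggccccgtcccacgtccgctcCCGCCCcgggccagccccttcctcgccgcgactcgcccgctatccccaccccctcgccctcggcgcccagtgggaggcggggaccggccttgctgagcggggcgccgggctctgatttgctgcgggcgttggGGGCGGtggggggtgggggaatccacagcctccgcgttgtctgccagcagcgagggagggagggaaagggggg
Col4a1 and Col4a2: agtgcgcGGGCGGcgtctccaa
A GC box was found before 21 of the 35 members and in 32.7% of 32851 promoter windows of the same length. A TATA box was found before 5 of the 35 and in 12.4% of windows, and CCAAT, searched on both strands, before 13 of the 35 and in 33.8% of windows. A match of these letters is a description of the window only.

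Collagen UMIs were concentrated in a small part of the barcodes. The fibroblast and endothelial classes made up 3.27% of the gated barcodes and 4.36% of the gated UMIs, and held 74.6% of the 5493 gated collagen UMIs. The level of all collagens, as UMIs per 10000 UMIs of a class with an exact 95% Poisson interval, was 137 (132 to 142) in fibroblasts and 69.4 (65.7 to 73.2) in endothelium. It was 9.06 (7.68 to 10.6) in surfactant-positive, 3.05 (2.61 to 3.55) in keratin-positive and 1.35 (1.28 to 1.44) in immune barcodes. Over the libraries with such barcodes, the fibroblast level had a mean of 123 ± 75.1 (SD, n = 7 libraries), the endothelial level 64.5 ± 23.9 (n = 7) and the surfactant-positive level 8.27 ± 2.40 (n = 8). The keratin-positive level was 3.55 ± 4.85 (n = 7) and the immune level 1.28 ± 0.734 (n = 8). The fibroblast and endothelial levels overlapped between libraries, and the lowest fibroblast level, 25.7, came from the 2 barcodes of the Tumor 1 border. All endothelial levels, from 37.5 to 102, were above every epithelial and immune level. Seq-Well counts 1 end of each transcript, so UMI levels of different genes were compared without a correction for length. Intervals cover counting error only, and cells of 1 library are not replicates.

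**Figure D1:**
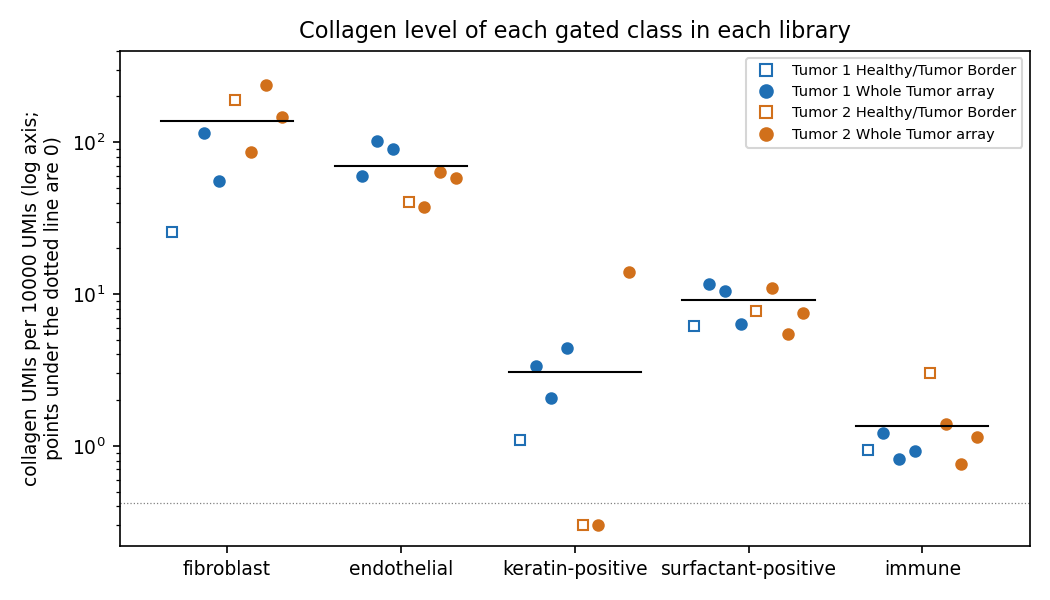
Collagen UMIs per 10000 UMIs (log axis) in each gated class, 1 point per library, with squares for the Healthy/Tumor Border, circles for Whole Tumor arrays and black bars for the level over all barcodes of the class. Fibroblast libraries lie between 25.7 and 239 and endothelial libraries between 37.5 and 102, above all libraries of the other 3 classes. Libraries without a barcode of a class have no point.

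Few barcodes carried much of this. Of 2751 collagen UMIs in fibroblasts, the 5 highest barcodes held 52.4%, and of 1346 in endothelium, the 5 highest held 50.4%. For Col3a1 in fibroblasts 1 barcode held 212 of 656 UMIs. Over genes, 5 members held 63.5% of the gated collagen UMIs and 10 held 84.6%. The other end of the family was sparse: 23 members had under 20 gated UMIs, with a median of 7 and 211 in total.

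**Figure D2:**
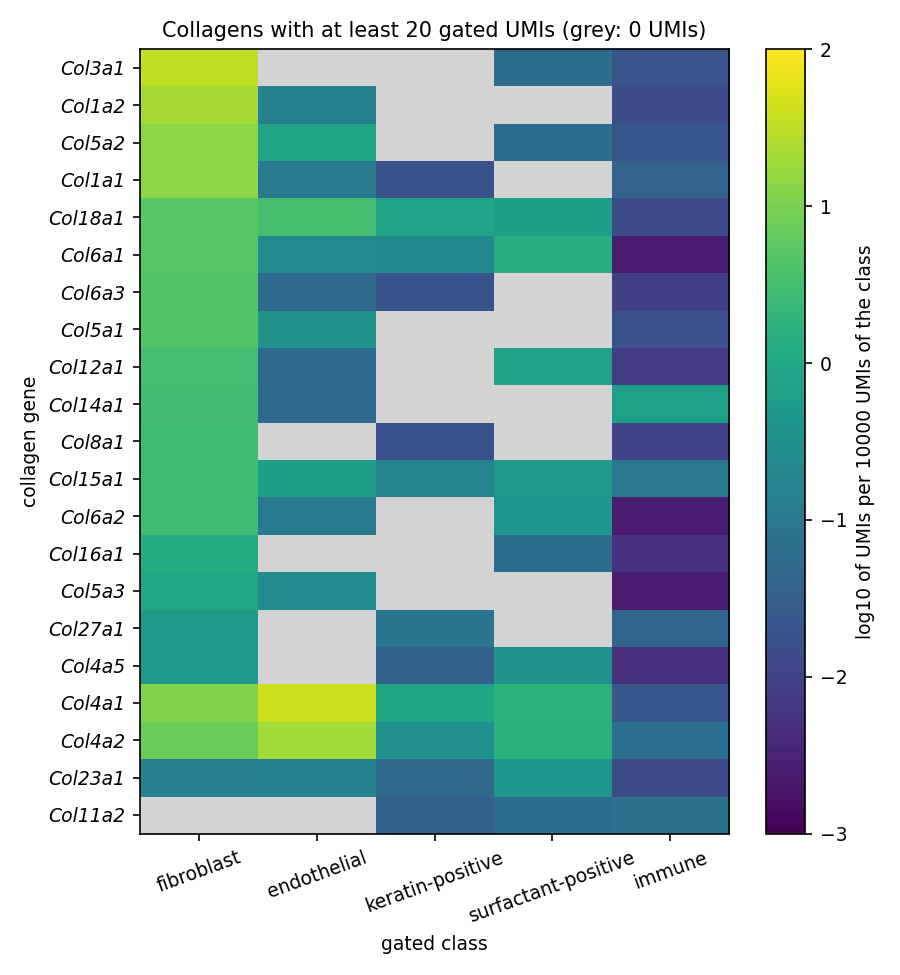
Level of the 21 collagens with at least 20 gated UMIs (rows) in the 5 classes (columns), as log10 of UMIs per 10000 UMIs, with grey for 0 UMIs. Col3a1, Col1a2, Col5a2 and Col1a1 lead in fibroblasts, Col4a1 and Col4a2 lead in endothelium, and Col11a2 is listed at 0 in both.

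For the class comparisons, UMIs were summed per tumor and class, which leaves 2 sums per class, and fitted over all genes with edgeR's quasi-likelihood test. A filter on low counts left 16 of the 44 collagens among 3719 genes, so that 28 members were not tested. A member that passed only through the class where it is high had to differ, and the counts are given as a description. Between fibroblasts and endothelium, 11 of the 16 were higher in fibroblasts at an adjusted p under 0.05, where 2.80% of all genes tested were higher. None was called lower, where 2.58% of all genes were, and Col4a1 was lower at an unadjusted p of 0.0384. DESeq2 called 8 higher and 0 lower. Without the 5 fibroblast-class barcodes that held at least 3 keratin or 10 surfactant UMIs, 13 of 16 were higher, where 3.04% of all genes were. The median log2 difference of the 16 was 4.82, or 4.24 with genes that had no endothelial UMI at their bound, beside 0.02 over all genes.

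Col3a1, the single chain of type III, had 656 UMIs in fibroblasts and 0 in endothelium, a level of 32.7 per 10000 and at least 211-fold higher when the endothelial class is put at 3 UMIs (adjusted p = 4.4e-06). By library its fibroblast level ran from 0 through a median of 17.8 to 65.5 per 10000, while all 7 endothelial libraries were at 0. Only the Tumor 1 border overlapped with endothelium.

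Type I collagen is built from 2 chains of Col1a1 and 1 of Col1a2. Col1a2 stood at 20.7 per 10000 in fibroblasts and 0.155 in endothelium, a log2 difference of 7.04 ± 1.06 (SE; adjusted p = 1.27e-05). Its fibroblast libraries ran from 0 through a median of 14.8 to 43.9, and 5 of 7 endothelial libraries were at 0. Col1a1 stood at 13.3 and 0.103, a log2 difference of 6.97 ± 1.04 (adjusted p = 1.12e-05). The Col1a1 fibroblast libraries ran from 0 through 11.2 to 23.7, and 6 of 7 endothelial libraries were at 0. Endothelium held 2 Col1a1 UMIs, both from Tumor 1 Whole Tumor array 1. Without that array the fitted Col1a1 difference was 12.9. That fit is against 0 endothelial UMIs, so the size of the difference depends on this array. In both genes the fibroblast library at 0 was the Tumor 1 border. The UMI ratio of Col1a2 to Col1a1 in fibroblasts was 1.56, with 1.38 in Tumor 1 and 1.66 in Tumor 2. Among the UMIs of these genes, Col1a2 took 57.9% (exact 95% binomial interval 51.3% to 64.4%) in Tumor 1 and 62.4% (57.8% to 66.9%) in Tumor 2, intervals that overlap.

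Type V chains join type I in mixed fibrils. Col5a2 had a level of 13.8 per 10000 in fibroblasts, about that of Col1a1, and its fibroblast libraries ran from 0 through 11.9 to 18.7. Its log2 difference from endothelium was 4.09 ± 0.97 (adjusted p = 0.00527), and DESeq2 did not call it (adjusted p = 0.332). The 18 endothelial Col5a2 UMIs all came from 2 barcodes of Tumor 2 Whole Tumor array 1. Without that array the fitted difference was 13.07, against 0 endothelial UMIs, so its size depends on this array. Col5a1 stood at 4.34 in fibroblasts, with a log2 difference of 3.63 ± 0.84 (adjusted p = 0.00428). Col5a3 was too sparse for the test, with 20 UMIs in fibroblasts and 5 in endothelium. Col3a1 and Col5a2 are neighbours on chromosome 1 with 24614 bases between them, on opposite strands.

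**Figure D3:**
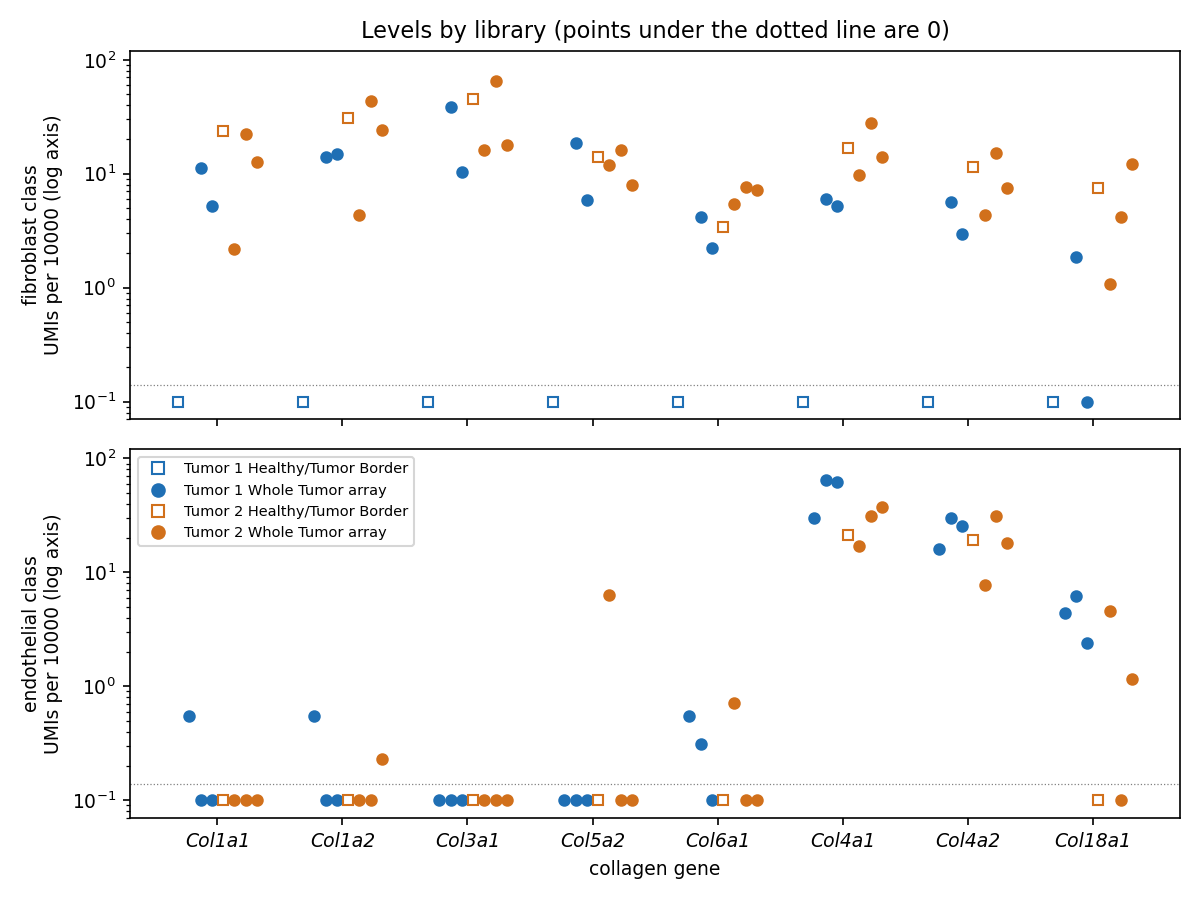
Level of 8 collagens (UMIs per 10000 UMIs, log axis) in the fibroblast class (top) and the endothelial class (bottom), 1 point per library, with 0 drawn under the dotted line. Col3a1 is at 0 in all 7 endothelial libraries, while Col4a1 lies between 17.0 and 64.4 there.

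Type VI is assembled from Col6a1, Col6a2 and Col6a3 chains. In fibroblasts they stood at 4.98, 2.74 and 4.44 per 10000, and in endothelium at 0.258, 0.103 and 0.0515. Their log2 differences were 4.28 ± 0.82 (adjusted p = 0.000371), 4.63 ± 1.20 (adjusted p = 0.0122) and 6.30 ± 1.23 (adjusted p = 0.000498). The Col6a2 call was lost without Tumor 1 Whole Tumor array 3 (adjusted p = 0.0679) and without Tumor 2 Whole Tumor array 3 (adjusted p = 0.108), and by DESeq2 (adjusted p = 0.0511). Endothelium held 2 Col6a2 UMIs and 1 Col6a3 UMI, fewer than the 3 UMIs used for bounds. All of them came from Tumor 1 Whole Tumor array 1. Without that array the fitted differences of Col6a2 and Col6a3 were 10.53 and 11.15, against 0 endothelial UMIs. The sizes of both differences thus rest on very few endothelial UMIs. Col12a1, a fibril-surface collagen, was found in all 7 fibroblast libraries, from 0.984 through 4.18 to 6.88 per 10000, and had a log2 difference of 5.91 ± 1.27 (adjusted p = 0.00187). The fitted Col12a1 difference was 10.71 without Tumor 1 Whole Tumor array 1, which held its only endothelial UMI. Col8a1, a short-chain collagen of vessel walls, had 57 UMIs in fibroblasts and 0 in endothelium, at least 18.4-fold higher (adjusted p = 0.00241). Tumor 2 Whole Tumor array 3 held 34 of the 57, and without it the bound was 7.74-fold. Those Col8a1 UMIs came from 8 barcodes, and 5 of these held 91.2%. Without any 1 array Col8a1 fell below the filter and was not tested, so its call was not checked in those fits. Col16a1 had 24 UMIs in fibroblasts and 0 in endothelium and did not pass (adjusted p = 0.0832).

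Col14a1, a fibril-surface collagen also known as undulin, was found in a part of the fibroblasts of Tumor 2. It had 58 UMIs in 8 of 45 barcodes, all from the Whole Tumor arrays of Tumor 2, at 15.1 (1 barcode), 2.79 (2 barcodes) and 7.75 (5 barcodes) per 10000. The Tumor 1 fibroblasts held 0 of 96339 UMIs, and the 6 barcodes of the Tumor 2 border held 0. Against endothelium the log2 difference was 5.02 ± 1.47 (adjusted p = 0.0335). That call was lost without Tumor 1 Whole Tumor array 3 (adjusted p = 0.0812) and without Tumor 2 Whole Tumor arrays 1 (0.0763) or 3 (0.303), without doublets (0.0609), without shared barcode sequences (0.0668), with looser stromal gates (0.0898) and by DESeq2 (0.886). The fitted difference ran from 3.495 to 10.24 over the 5 fits without 1 array that tested Col14a1. It was 10.24 without Tumor 1 Whole Tumor array 1, which held the only endothelial Col14a1 UMI. Col13a1, a membrane collagen, was found in 4 fibroblast barcodes.

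Type IV collagen led in endothelium. The basement membrane chain α1(IV), from Col4a1, had 818 UMIs in 40 of 53 endothelial barcodes, a level of 42.2 per 10000, against 11.3 in fibroblasts. Its endothelial libraries ran from 17.0 through 30.9 to 64.4, and its fibroblast libraries from 0 through 9.73 to 27.9, so that the ranges overlapped. The log2 difference of fibroblasts over endothelium was -1.89 ± 0.88 (adjusted p = 0.29). Col4a2, which encodes the partner chain, stood at 20.3 and 7.38 per 10000, with a log2 difference of -1.27 ± 0.77 (adjusted p = 0.491). Endothelial levels of Col4a1 were 30.2, 64.4 and 61.8 in the arrays of Tumor 1 and 17.0, 30.9 and 37.4 in those of Tumor 2. Thus neither chain passed the test between the 2 stromal classes.

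The chains of the type IV protomer, 2 of Col4a1 to 1 of Col4a2, can be set beside their UMIs. In endothelium the UMI ratio of Col4a1 to Col4a2 was 2.08, with 2.20 in Tumor 1 and 1.85 in Tumor 2, and Col4a1 took 67.5% of the pair (64.8% to 70.2%). In fibroblasts the ratio was 1.53, with 1.12 in Tumor 1 and 1.73 in Tumor 2. The Col4a1 share in fibroblasts was 52.8% (42.9% to 62.6%) in Tumor 1 and 63.4% (57.4% to 69.2%) in Tumor 2. Immune barcodes held 54 Col4a2 and 18 Col4a1 UMIs, with 37 and 3 in Tumor 1 and 17 and 15 in Tumor 2. Of the 53 endothelial barcodes, 30 held both chains and 4 held neither.

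Against immune barcodes, 15 of the 16 tested members were higher in fibroblasts, where 13.7% of all genes were, and none was lower by edgeR, by DESeq2 or at an unadjusted p under 0.05, where 10.1% were. The exception was Col14a1 (log2 difference 1.13, adjusted p = 0.463). Endothelium was higher than immune barcodes in 7 of 16 members, where 13.1% of all genes were, and lower in none by edgeR or DESeq2, where 10.6% were, with 1 lower at an unadjusted p under 0.05 (Col14a1). The members higher were Col4a1 (log2 difference 10.6 ± 1.26), Col4a2 (7.89 ± 1.01), Col18a1 (7.41 ± 0.95), Col6a1 (5.81 ± 1.20), Col5a2 (4.96 ± 1.09), Col5a1 (4.08 ± 1.01) and Col15a1 (2.29 ± 0.87). Immune barcodes held 2 UMIs of Col6a1 and 2 of Col6a2, and endothelium held 5 of Col6a1. The sizes of Col6a1 and Col6a2 differences from immune barcodes therefore rest on few UMIs. The Col5a2 difference rested on Tumor 2 Whole Tumor array 1, without which endothelium held 0 Col5a2 UMIs and no direction is shown (adjusted p = 0.655), and DESeq2 did not call it (adjusted p = 0.347). The Col15a1 call was at the threshold (adjusted p = 0.0497) and was lost without Tumor 1 Whole Tumor array 1 (0.302), Tumor 2 Whole Tumor array 2 (0.0857) or Tumor 2 Whole Tumor array 3 (0.181). It was lost under 12 alternatives in all, among them DESeq2 (0.0552), all deposited barcodes (0.0508) and no filter on low counts (0.361).

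Types XV and XVIII are proteoglycans of basement membranes. Col18a1 stood at 5.33 per 10000 in fibroblasts, 3.30 in endothelium, 0.849 in keratin-positive and 0.596 in surfactant-positive barcodes. Fibroblasts and endothelium did not differ by the test (log2 difference 0.86 ± 0.78, adjusted p = 0.738). The Col18a1 fibroblast libraries ran from 0 through 1.85 to 12.2 and the endothelial ones from 0 through 2.42 to 6.16. Col15a1 stood at 2.79 in fibroblasts and 0.619 in endothelium (log2 difference 2.40 ± 0.85, adjusted p = 0.1). In fibroblasts 5 of the 11 barcodes with Col15a1 held 87.5% of its UMIs. Col15a1 also had 81 UMIs in immune barcodes, 54 of them in barcodes of the neutrophil list.

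In surfactant-positive barcodes, 6 of 16 members were higher than in immune barcodes, where 12.2% of all genes were: Col6a1 (log2 difference 8.43 ± 0.93), Col6a2 (6.64 ± 1.31), Col12a1 (6.12 ± 1.06), Col4a1 (6.07 ± 1.08), Col18a1 (5.06 ± 1.04) and Col4a2 (4.32 ± 0.89). Of these, Col4a1 was found in 7 of 8 libraries, Col6a1 in 6 and Col12a1 in 4. The class held 24 Col6a1 and 7 Col6a2 UMIs, against 2 of each in immune barcodes, so the sizes of these 2 differences are uncertain. One member was lower, where 13.1% of all genes were. This was Col14a1, with 0 UMIs in surfactant-positive barcodes and at least 3.81-fold lower than in immune barcodes (adjusted p = 0.0212), a call that DESeq2 did not make (0.603). That bound was 1.66-fold without the Tumor 2 border and 2.16-fold within Tumor 2, and Tumor 1 alone gave none. Col1a1 and Col1a2 were at 0 in all 8 libraries of this class, and Col3a1 had 1 UMI. Surfactant-positive barcodes also held fibroblast gate genes at 7.10 per 10000 and endothelial gate genes at 5.78, whose part in these levels was not tested.

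Col4a3 and Col4a4 encode the chains that, with Col4a5, build the alveolar and kidney form of type IV. Col4a4 had 13 of its 19 gated UMIs in surfactant-positive barcodes, at 0.775 per 10000 and in 3 of 8 libraries. Col4a3 had 3 of its 13 gated UMIs and Col4a5 had 6 of its 22 in that class. Immune barcodes held 8 UMIs of Col4a3 and 5 of Col4a4. Fibroblasts and endothelium together held 0 UMIs of Col4a4 and 1 of Col4a3. For Col4a5 the largest share of gated UMIs, 45.5%, was in fibroblasts, against 27.3% in surfactant-positive barcodes. Among these chains, only Col4a4 thus had most of its gated UMIs in surfactant-positive barcodes. Col4a3 and Col4a4 lie head to head on chromosome 1 with 71 bases between them, and both were under the count needed for the test.

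Keratin-positive barcodes came mostly from Tumor 1, 134 of 141. Of the 16 members, 4 were higher there than in immune barcodes, where 12.3% of all genes were: Col6a1 (log2 difference 6.36 ± 1.00), Col18a1 (5.71 ± 0.95), Col4a1 (5.50 ± 1.09) and Col4a2 (2.47 ± 0.92). The Col4a2 call (adjusted p = 0.043) was lost under 5 of the 6 fits that leave out an array, with adjusted p from 0.0784 to 0.0953, and without the border libraries (adjusted p = 0.056). It was lost under 11 alternatives in all, among them no filter on low counts (0.319), looser stromal gates (0.116) and doubled gates (0.0944). Col14a1 was the 1 member lower, where 13.7% of all genes were, with 0 UMIs and at least 12.6-fold lower (adjusted p = 0.0167), a call that DESeq2 did not make (0.502). That bound was 5.97-fold without the Tumor 2 border and 3.49-fold within Tumor 1, and Tumor 2 alone gave none. By library, Col4a1 had 20, 13 and 16 UMIs in the arrays of Tumor 1 and 2 in Tumor 2 Whole Tumor array 3. Col6a1 had 13 UMIs in this class, against 2 in immune barcodes, without any Col6a2, its partner chain. Among fibrillar chains, the class held 5 UMIs of Col27a1, 2 of Col11a2 and 1 of Col1a1. Keratin-positive barcodes held mesothelial genes at 28.9 per 10000, of which Krt19 is also a gate gene, and fibroblast gate genes at 10.7 per 10000, against 0.643 in immune barcodes. The part of both in these levels was not tested.

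Immune barcodes held little collagen, with Col14a1 as the main member. Col14a1 made up 541 of the 1075 collagen UMIs of the immune class, and 534 of the 541 were in barcodes of the macrophage list. The Tumor 2 border held 324 of the 541, and without that library Col14a1 made up 217 of 676, or 32.1% in place of 50.3%. C1q genes, which encode the first component of complement and mark tissue macrophages, divided that list. Barcodes with C1q UMIs held 532 Col14a1 UMIs and those without held 2. Thinned to 1000 UMIs, an expected 21.5% of 318 C1q barcodes would hold Col14a1, against 0.612% of 207 other macrophage-list and 0.124% of 1338 neutrophil-list barcodes, with 13, 14 and 286 shallower barcodes left out. The unthinned shares were 42.9% (37.5% to 48.4%), 0.905% and 0.308%, at median depths of 4331, 3145 and 2091 UMIs. Dendritic (96 barcodes) and T or NK barcodes (141) held 0, with exact 95% upper limits of 3.77% and 2.58%, or 3.12% and 2.13% at 3 barcodes of the total. These limit barcodes with a Col14a1 UMI, not cells that express the gene.

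Other fibroblast genes were counted in the same barcodes. The C1q barcodes held 1 Col1a2, 5 Col3a1, 4 Col1a1, 0 Col6a3 and 2 Dcn UMIs beside 532 of Col14a1. Dcn is a fibroblast gate gene, so its counts in the 2 groups are partly set by the gates. The fibroblast class held 416 Col1a2, 656 Col3a1, 267 Col1a1, 89 Col6a3 and 309 Dcn UMIs beside 58 of Col14a1. Of the 45 fibroblast barcodes, 8 held Col14a1, and a part of fibroblast RNA in the C1q barcodes was not tested. In the C1q barcodes of Tumor 1, Col14a1 stood at 0 in the border, which held 1 such barcode, and at 0.396, 1.46 and 1.24 per 10000 in the arrays. In Tumor 2 it stood at 4.53 in the border and at 3.54, 2.32 and 3.13 in the arrays. Every Tumor 2 library was above every Tumor 1 library.

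**Figure D4:**
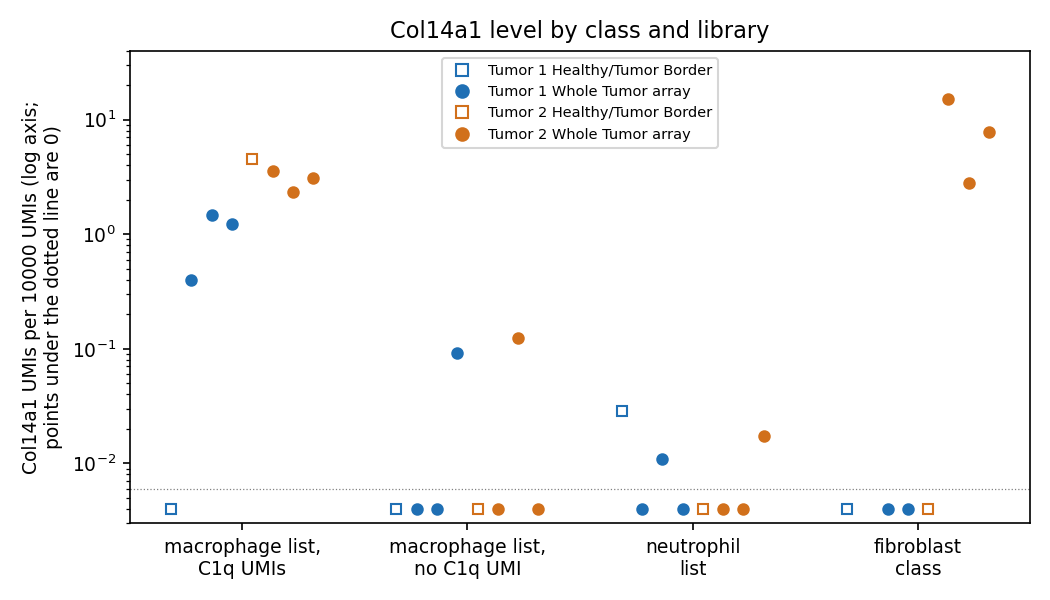
Col14a1 UMIs per 10000 UMIs (log axis) in barcodes of the macrophage list with and without C1q UMIs, of the neutrophil list and of the fibroblast class, 1 point per library, with 0 drawn under the dotted line. The C1q barcodes of Tumor 2 lie between 2.32 and 4.53 and those of the Tumor 1 arrays between 0.396 and 1.46.

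Other collagens in immune barcodes were sparse. Col11a2, a minor chain of cartilage fibrils, had 58 of its 61 gated UMIs in immune barcodes, 44 in the neutrophil list, and was found in all 8 immune libraries at 0.0133 to 0.147 per 10000. In fibroblasts and endothelium it had 0 UMIs, below 0.150 and 0.155 per 10000 at 3 UMIs per class, so that a level as low as that of the immune class was not detectable there. Col27a1, a fibrillar chain, had 33 UMIs in immune barcodes and 10 in fibroblasts, levels of 0.0416 and 0.498 per 10000. Col1a1 had 24 UMIs in the neutrophil list and was found in all 8 immune libraries. Col23a1, a membrane collagen, had 27 gated UMIs spread over all 5 classes.

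Between the tumors, UMIs of the Whole Tumor arrays were compared, 3 technical arrays against 3. This test measures the spread between arrays of 1 tumor and compares 2 mice, 1 male and 1 female. Differences of tumor, mouse and sex cannot be told apart here. In summed libraries, fewer cells of a type and less RNA per cell cannot be told apart. Of 14 members tested, 3 were higher in Tumor 2, where 18.3% of 8701 genes were higher, and none was lower, where 14.7% were. DESeq2 also called 3 higher and 0 lower, and 6 members had an unadjusted p under 0.05, 5 of them higher and Col15a1 lower. Col14a1 was 2.13 ± 0.26 higher on the log2 scale (adjusted p = 1.6e-05), with 0.109, 0.258 and 0.191 UMIs per 10000 in Tumor 1 and 0.736, 0.614 and 0.708 in Tumor 2. The Col6a2 difference was 1.98 ± 0.45 (adjusted p = 0.00326), with 0.0696, 0.0545 and 0.0382 against 0.109, 0.240 and 0.189. The Col6a3 difference was 1.71 ± 0.54 (adjusted p = 0.025), with 0.129, 0.0842 and 0.0191 against 0.0682, 0.214 and 0.295. The values of Col14a1 and Col6a2 did not overlap between the tumors and those of Col6a3 did.

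Both Col6 calls depended on single arrays. Without Tumor 2 Whole Tumor array 3 the adjusted p was 0.0652 for Col6a2 and 0.413 for Col6a3, and Col6a3 was also lost without Tumor 1 Whole Tumor array 2 (0.0526) or 3 (0.0762) and without Tumor 2 Whole Tumor array 2 (0.0536). Scaling by library totals alone shifted the median log2 difference of all genes from -0.06 to -0.38 and the share of calls that were higher from 55.4% to 27.2%. Under that scaling Col14a1 (1.81) and Col6a2 (1.66) were higher, Col6a3 was 1.38 (adjusted p = 0.052) and Col15a1 was lower (-1.28, adjusted p = 0.0203). Col18a1 changed sign under that scaling and Col4a2 did under DESeq2's. Fibroblast-class barcodes numbered 0, 12 and 4 in the arrays of Tumor 1 and 4, 6 and 11 in those of Tumor 2. Their part in the differences was not tested. Barcodes with C1q UMIs numbered 27, 48 and 21 in the arrays of Tumor 1 and 27, 28 and 46 in those of Tumor 2. Within them Col14a1 stood at 0.396, 1.46 and 1.24 per 10000 in Tumor 1 and at 3.54, 2.32 and 3.13 in Tumor 2.

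The border libraries were set beside the arrays of their tumor as values without a test, since each border is 1 library. In Tumor 1 the border held 2.01 collagen UMIs per 10000 (1.77 to 2.28) and the arrays 5.35, 7.83 and 6.53, so that the border lay 4.56 below their mean, with an SD of 1.24 between the arrays. In Tumor 2 the border held 7.26 (6.83 to 7.71) and the arrays 5.23, 11.3 and 7.24, so that the border lay within their range. Border cells were sorted for calcein violet, a viability dye, and for photoactivated calcein NVOC, and Whole Tumor cells were not photoactivated, so the sort can set the share of each class. The Tumor 1 border held 2 fibroblast-class and 0 endothelial-class barcodes of 620, and the Tumor 2 border 6 and 2 of 506. Endothelial-class barcodes numbered 7, 4 and 5 in the arrays of Tumor 1 and 7, 12 and 16 in those of Tumor 2, and their part in the border differences was not tested.

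Col4a1 and Col4a2, the main type IV chains, were lower in both borders. Col4a1 stood at 0.114 per 10000 in the Tumor 1 border against 1.41, 1.44 and 2.74 in the arrays, and at 0.499 in the Tumor 2 border against 0.900, 1.66 and 1.37. Col4a2 stood at 0.138 against 0.805, 0.877 and 1.23, and at 0.342 against 0.463, 1.20 and 0.741. The border was thus below all 3 arrays in both tumors for both chains. Col6a1, Col6a2 and Col18a1 also lay below all arrays in both tumors. Col27a1 lay above all arrays in both, at 0.130 against 0.119, 0.0545 and 0.0764 in Tumor 1 and at 0.123 against 0.109, 0.0267 and 0.0836 in Tumor 2. Of 37 members with at least 20 UMIs, 5 lay below in both tumors, where 7.33% of 13800 genes did, and 1 lay above in both, where 4.93% did. In Tumor 1, 16 lay below all arrays, where 53.0% of genes did, and 6 above, where 16.8% did. In Tumor 2, 7 lay below, where 16.1% of genes did, and 6 above, where 39.8% did. Below the arrays in one tumor and above them in the other lay 3 members, where 29.2% of genes did. Nothing particular to collagens is read from these counts. Col3a1, at 0.00813 in the Tumor 1 border from 1 UMI, lay below the arrays of that tumor (0.0895 to 1.57), and at 0.923 in the Tumor 2 border within them (0.286 to 2.54). Col14a1 stood at 2.22 in the Tumor 2 border against 0.736, 0.614 and 0.708 in its arrays. That border held 133 C1q barcodes against 27, 28 and 46 in the arrays, and within the C1q barcodes its level, 4.53, was also the highest of the 4 libraries.

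**Figure D5:**
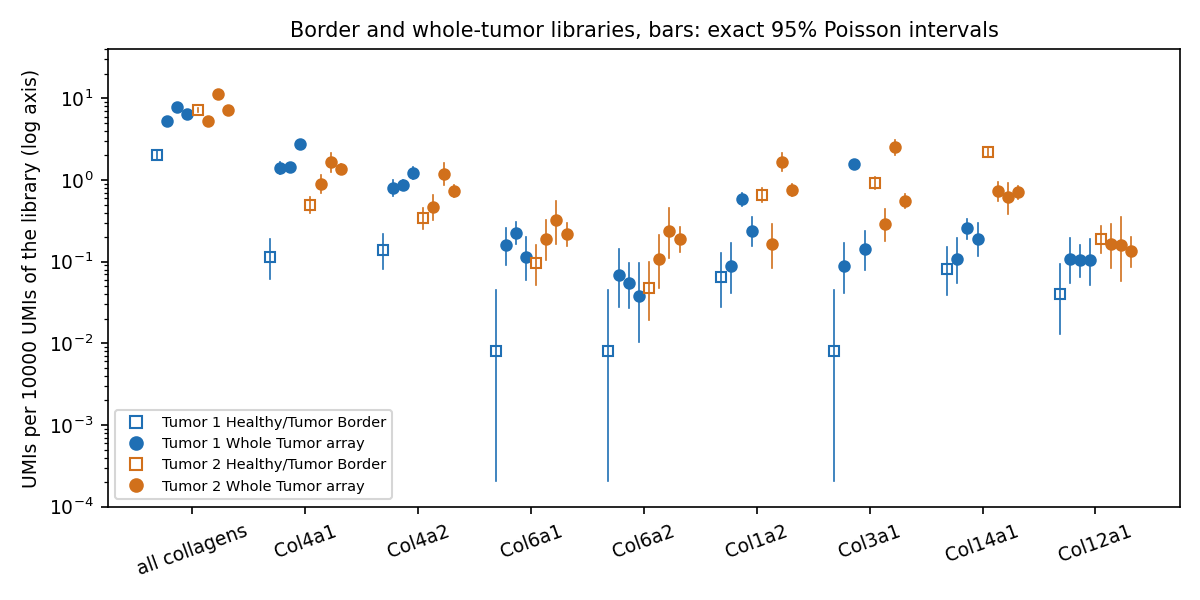
UMIs per 10000 UMIs of a whole library (log axis) for all collagens and 8 members, with squares for the Healthy/Tumor Border, circles for Whole Tumor arrays and bars for exact 95% Poisson intervals. Col4a1 and Col4a2 lie lower in each border than in every array of that tumor, and Col14a1 lies higher in the Tumor 2 border (2.22) than in its arrays.

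Genes that make, bind or break down collagen were counted by list between fibroblasts and endothelium, where 2.80% of all genes tested were higher and 2.58% lower in fibroblasts. None of them is in a gate list. Of 19 chain modification and folding genes, 7 were tested and none was called by edgeR or DESeq2, with 0 at an unadjusted p under 0.05. Those with the most gated UMIs were P4hb and P4ha1, the subunits of prolyl 4-hydroxylase, Mia3, a factor of collagen export, and Ppib, a folding enzyme. P4hb stood at 6.13 per 10000 in fibroblasts and 5.31 in endothelium, P4ha1 at 1.79 and 1.34, Mia3 at 2.29 and 1.24 and Ppib at 1.20 and 1.03.

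Of 12 processing and cross-linking genes, 3 were tested and all 3 were higher in fibroblasts. Lox, the lysyl oxidase that starts cross-links, stood at 5.43 per 10000 against 0.103 (log2 difference 5.72 ± 1.01, adjusted p = 0.000148). Bmp1, which removes the C-terminal propeptide, had a difference of 2.81 ± 0.81 (adjusted p = 0.0294), and Pcolce, its enhancer, one of 5.41 ± 1.52 (adjusted p = 0.0238). Adamts2, which removes the N-terminal propeptide, had 52 UMIs in fibroblasts and 1 in endothelium and was not tested.

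Among collagen receptors and uptake genes, 5 of 11 were tested, 1 was higher and 1 lower in fibroblasts. Ddr2, a receptor kinase for fibrillar collagen, was 4.39 ± 1.04 higher on the log2 scale (adjusted p = 0.00485), and Cd93, a receptor of endothelial and myeloid cells, was -8.84 ± 1.24 (adjusted p = 5.68e-06). Itgb1, the shared β1 integrin chain, stood at 10.3 and 11.6 per 10000. Of 6 breakdown genes, 3 were tested and Mmp2, the gelatinase A gene, was higher (6.89 ± 1.03, adjusted p = 1.27e-05). Mmp9, the gelatinase B gene, did not pass (1.70 ± 1.72, adjusted p = 0.779). It had 3383 of the 7937127 UMIs of immune barcodes and 3 of the 200650 of fibroblasts. The log2 difference of Mmp9 in fibroblasts over immune barcodes was -5.19 ± 0.94 (adjusted p = 3.87e-05). Of 12 other matrix genes, 9 were tested and 3 were higher: Fn1, which encodes fibronectin (6.34 ± 1.15, adjusted p = 0.000173), Tnc, for tenascin C (3.05 ± 0.80, adjusted p = 0.0131), and Fbln2, for fibulin 2 (2.51 ± 0.78, adjusted p = 0.0465). DESeq2 called 2 of this list. Sparc, a collagen-binding protein, stood at 31.3 and 18.6 per 10000 and did not pass (adjusted p = 0.818).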

How the data were processed

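Single cells of 2 KP lung tumors were profiled by Seq-Well in 8 libraries. The authors demultiplexed reads with bcl2fastq 2.17.1.14, aligned them to mm10 with STAR 2.5.2b (the submitters' processing notes) and deposited UMI counts per gene and barcode, without normalization. Barcodes with at least 200 genes were kept (3894 of 4343). Classes were gated on marker lists: at least 3 UMIs over 3 genes (fibroblast, endothelial), 3 over 2 (keratin, immune) or 10 over 3 (surfactant). A barcode with as many immune as gate UMIs was mixed. Levels are UMIs per 10000 with exact Poisson intervals, and shares have exact binomial (Clopper-Pearson) intervals. Counts summed per tumor and class (10 sums, 4 residual degrees of freedom), or per Whole Tumor array, were tested with edgeR 4.0.16 (TMM, quasi-likelihood, Benjamini-Hochberg over all genes, threshold 0.05) in R 4.3.3, with DESeq2 1.42.0 as an alternative. Scripts were tested on simulated data. Doublets were called with scanpy 1.11.5 (57 barcodes, 1.46%) and kept in the main fit. Other alternatives changed the filter, the scaling, the gates, the summing and the arrays included. Leaving out shared barcode sequences, fibroblast-class barcodes with epithelial UMIs, the Tumor 2 border for Col14a1 in immune barcodes, or each library for the fold bounds was chosen after seeing the data. Collagens with at least 20 gated UMIs or a call were named. Of each gene list, up to 4 genes with the most UMIs were to be named, and Ddr2, Mmp2 and Fbln2 were added after their values were seen. The members and lists were chosen with earlier results of these data known. The arrays of a tumor are technical replicates, so p-values between tumors measure only the spread between arrays. A further allele of the mice is not reported here.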

Additional observations from a re-analysis of the deposited data

Results flagged for a closer look

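For 3 collagens every Whole Tumor array lay on one side of the border library in Tumor 1 and on the other side in Tumor 2, and this difference between the tumors was not tested. It is 3 of 37 members, where 29.2% of all genes with as many UMIs did the same. Col14a1 in the border differed from the mean of the arrays by -0.105 UMIs per 10000 in Tumor 1 and by 1.53 in Tumor 2. Col12a1 differed by -0.0655 in Tumor 1 and by 0.0389 in Tumor 2. Col4a6, a type IV chain of some epithelial basement membranes, differed by 0.0617 and by -0.0227, with 9 and 0 UMIs in the borders.

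Barcodes outside the compared classes also held collagen UMIs. The 868 ungated barcodes, with a median of 396.5 UMIs, stood at 12.07 collagen UMIs per 10000, against 1.35 in immune barcodes, and held at least 1 UMI of all 44 members. Gm10800, Gm10801 and Gm26870 together stood at 310.7 per 10000 in them, against 7.61 in immune barcodes. The 31 mixed barcodes stood at 9.86 per 10000. The part of low depth and of these transcripts in the levels was not tested.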

How the results depend on the processing

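Of 48 calls of a collagen in a comparison, 10 were lost under at least 1 alternative. Over 825 values under alternatives, 781 kept the call, 43 lost it and 1 changed sign. A further 66 alternatives of 23 calls gave no adjusted p and are not in these counts. Col8a1 had none in 13 of 19 alternatives in fibroblasts over endothelium and over immune barcodes, among them all 6 fits without 1 array. The fibroblast calls over immune barcodes were kept in all 258 values that could be tested, with 27 that could not. The fitted log2 difference of Col5a2 in endothelium over immune barcodes was -3.92 without Tumor 2 Whole Tumor replicate 1. That array held all 18 of its endothelial UMIs, so this fit is against 0 UMIs and shows no direction. The fitted value ranged from -3.92 to 5.48 over the fits without 1 array. With 1 sum per library only 7 collagens could be tested, and 4 were called in fibroblasts over endothelium, 7 in fibroblasts over immune and 4 in surfactant-positive over immune barcodes. With the Whole Tumor arrays only, 3 were called in keratin-positive over immune barcodes. Leaving out 1 array at a time, the calls ranged from 7 to 10 for fibroblasts over endothelium, 10 to 14 for fibroblasts over immune, 5 to 8 for endothelium over immune, 3 to 5 for keratin-positive over immune, 6 to 7 for surfactant-positive over immune and 1 to 7 between the tumors. In endothelium over immune barcodes, 1 of 15 collagens was lower without Tumor 1 Whole Tumor array 1, where 370 of 3490 genes were. With no filter on low counts, 1 of 44 was lower there, where 598 of 23363 genes were. Between the tumors, 1 was called with at least 500 genes per barcode and 6 without a filter on low counts, against 3. Without Tumor 1 Whole Tumor array 3, 2 of 16 collagens were higher in Tumor 2 and 1 was lower, where 1424 and 1034 of 9070 genes were. The cause was not tested where fewer genes or arrays do not give it. The collagen level of the Tumor 2 border differed from the mean of its arrays by -0.651 UMIs per 10000, and by 1.03 without array 2.

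With the array number as a replicate block, 8 of 14 collagens were higher in Tumor 2, where 17.6% of all genes were. Same-numbered arrays of the tumors correlated at 0.116, 0.126 and -0.0294 in their deviations. Arrays 1 and 2 correlated best with their own number and array 3 did not. These 3 low values cannot show whether same-numbered arrays share more than a number. The class comparisons have no numbered replicates.

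The 23 sparse collagens, 45 fibroblast and 53 endothelial barcodes limit the depth of these comparisons. Each border is 1 library, so its printed intervals cover counting error and not the variation between libraries.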
